A study of Mus musculus with 4 samples.

Results

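The outer rim of the lung was set against its inside in 2 spatially profiled lung sections. An edge spot was a spot under tissue with at least 1 of its 6 neighbors on the array outside the tissue. An interior spot lay 4 or more steps from any spot outside the tissue. Spots without 6 listed neighbors were left out, and so were spots with 200 detected genes or fewer. The choice used only positions and the number of detected genes, not which genes a spot expressed. It gave 477 edge spots, of which mouse A had 184 and mouse B 293, and 3167 interior spots, 1201 and 1966, among the 4477 lung spots and the 9445 spots of the series. In the lung, 8 spots of mouse B lacked 6 neighbors and 0 spots had 200 genes or fewer. The other lung spots lay 2 or 3 steps in and numbered 312 and 513.

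Both lungs came from BALB/c mice, a common inbred strain, that received 100000 4T1 cells in the mammary fat pad at 8 weeks of age and were sacrificed 28 days later. 4T1 is a line of triple-negative mammary carcinoma cells derived from a BALB/c tumor, which metastasizes to the lung. Lung and primary tumor of the same 2 animals were each profiled in 1 section of 4 μm of formalin-fixed and paraffin-embedded tissue, so that n = 2 mice for each tissue. No genotype other than the strain and no other treatment was given, and no section from a mouse without 4T1 cells was analysed here. Every edge spot bordered background outside the section. Whether a stretch of edge was pleura or a cut face was not given in the sources used here, and the 2 kinds of edge cannot be told apart.

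The surface of the lung is covered by the visceral pleura, a single layer of mesothelial cells on a thin sheet of connective tissue with collagen and elastic fibers. Mesothelial cells make glycoproteins that help the lung slide against the chest wall, and express Msln, Upk3b, Wt1 and Lrrn4 among others. Under the pleura lie alveoli with their capillaries, while large airways and vessels enter at the hilum, which is itself a part of the outline of a section. Tumor cells that reach the lung through the blood can grow as nodules at the surface.

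Summed over edge and interior spots, the depth was 950828 and 8227132 UMIs (unique molecular identifiers, each standing for 1 captured probe pair) in mouse A. In mouse B it was 3072445 and 21168238 UMIs. The median edge spot was shallower than the median interior spot in mouse A, with 4430.5 against 6887 UMIs, and close to it in mouse B, with 8873 against 9139.5. Levels are given as CPM, the UMIs of a gene per 1000000 UMIs of the summed spots, so that shares and not absolute amounts were compared. Fewer cells of a type in a spot and less RNA per cell cannot be told apart in such sums. The label of the tissue held, since Sftpc, the surfactant gene that defines alveolar type 2 cells, had 9882 CPM at the edge and 9798 in the interior of the lung of mouse A. In the lung of mouse B it had 4333 and 6345 CPM, while the 4 sums of the primary tumors were between 0 and 8.50 CPM. The lung sections share 1458 barcodes, which are positions on the array and not shared material.

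**Figure D1:**
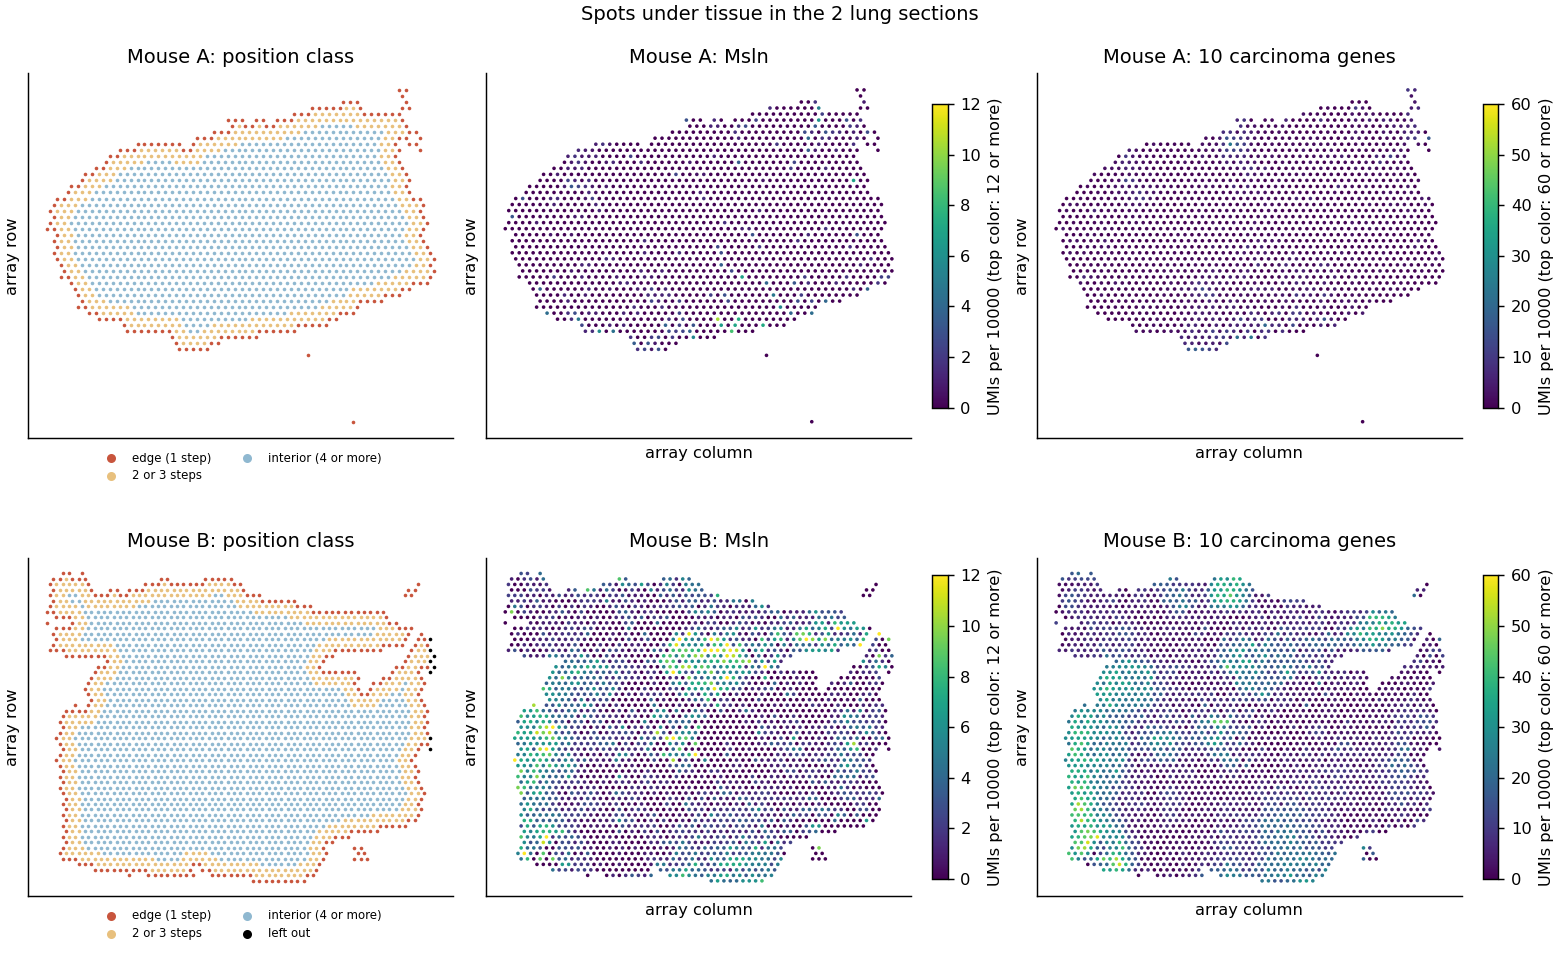
Spots under tissue in the lung sections of mouse A (top) and mouse B (bottom), at their array rows and columns. Colors give the position class (left), and the UMIs of Msln (middle) and of 10 carcinoma genes (right) per 10000 UMIs of a spot, where the top color stands for 12 or more and for 60 or more. The 293 edge spots of mouse B pass along a carcinoma-rich stretch on the left, and the 184 edge spots of mouse A have few such spots.

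Mesothelial genes were higher at the edge of both lungs, and for most of them the difference rested on few UMIs. Summed over the 18 genes of the list, the level was 386 CPM at the edge and 218.4 in the interior of mouse A, and 683 and 432 CPM in mouse B. The edge was thus 1.77-fold and 1.58-fold above the interior, a mean log2 ratio of 0.74 ± 0.11 (SD, n = 2 mice). In the primary tumors, which have no pleura, the same ratios were 0.92 and 0.97. With 2 mice an exact permutation test cannot give a two-sided p under 0.5, so the summed level is given without a test. Of the 18 genes, 15 had a higher CPM at the edge in both mice. The exceptions were Wt1, Efemp1 and Calb2, and Calb2, the calretinin gene, had 0 UMIs at either edge.

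Across all 12924 genes that passed the filter on low counts, edge and interior sums were compared with edgeR (quasi-likelihood test, the mouse as a block). Only 3 genes, 0.0232% of those tested, were higher at the edge at an adjusted p under 0.05, and 0 were lower. None of the 15 mesothelial genes tested was among them. At an unadjusted p under 0.05, 5% of all genes were higher and 7.81% were lower at the edge, and among the 15 mesothelial genes 11 were higher and 0 lower. Their median log2 fold change was 1.00, against -0.016 over all genes tested. The CPM was above that of the interior in both mice for 13 of the 15, against 39.7% of all genes tested. With the trimmed-mean (TMM) scaling of the fit, which lowers the edge by 0.09 on the log2 scale in mouse A and by 0.11 in B, these counts were 12 of 15 and 26.3%. Calb2, Prg4 and Gata5 did not pass the filter. The filter asks for a minimal CPM in 2 of the 4 sums. Upk3b, Upk1b and Muc16 reached it only in the 2 edge sums, so they could be tested only by being high at the edge. The counts over the 15 genes and their median therefore partly follow from the filter and give no support of their own.

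Msln encodes mesothelin, a surface glycoprotein of mesothelial cells that some carcinomas also make. It had 72.6 CPM at the edge and 17.6 in the interior of mouse A, from 69 and 145 UMIs. In mouse B it had 395.1 and 259.4 CPM, from 1214 and 5491 UMIs. The edge was 4.12-fold above the interior in mouse A (95% interval 3.05 to 5.52) and 1.52-fold in mouse B (1.43 to 1.62), and these exact binomial intervals cover counting error only. The fold therefore differed between the mice by far more than counting error. Both lung sums of mouse B were above both sums of mouse A. The fitted log2 fold change was 1.00 (SE 0.26, adjusted p = 0.160 in the edgeR fit), so the difference did not pass the test. Msln is not particular to the pleura here. Its level in the primary tumor was 60.2 CPM at the edge and 60.8 in the interior of mouse A, and 147.8 and 107.9 in mouse B, and in the lung of mouse B it was high inside as well, as the maps of the sections show. After the tenth of each section's spots with the highest share of UMIs on 10 carcinoma genes was left out, its log2 fold change was 0.70 (adjusted p = 0.228 in the same edgeR fit).

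Aldh1a2, which makes retinoic acid and is expressed in mesothelium, gave the firmest difference among the mesothelial genes. It had 11.6 CPM at the edge against 2.31 in the interior of mouse A (11 and 19 UMIs). In mouse B it had 50.8 against 13.7 CPM (156 and 290 UMIs). The folds of 5.01 (interval 2.15 to 11.1) and 3.71 (3.03 to 4.52) overlapped between the mice. The log2 fold change was 1.88 (SE 0.27, adjusted p = 0.0815 in the edgeR fit), which misses the threshold. It passed after spots high in carcinoma genes were left out (1.88, adjusted p = 0.00630 in edgeR), and with an edge of 1 or 2 steps (1.57, adjusted p = 0.00213). It also passed without the filter, with an interior from 3 or 6 steps, and without airway-rich spots. It was not called with another scaling, without the block, with DESeq2, or with spots thinned to 2000 UMIs. Nor was it called against the ring 3 steps in, in the largest piece of tissue, or without cardiac-rich spots. Levels in the primary tumors were between 0 and 6.74 CPM.

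The genes held most typical of mesothelium were scarce. Upk3b, a uroplakin of bladder epithelium and mesothelium, had 3 UMIs at the edge and 7 in the interior of mouse A, and 8 and 5 in mouse B. This gave 3.16 against 0.85 CPM and 2.60 against 0.24 CPM. The fold was 3.71 in mouse A, with an interval of 0.62 to 16.2 that includes no difference, and 11.0 in mouse B (3.18 to 42.8). The fitted log2 fold change of Upk3b was 2.63 (SE 0.71, adjusted p = 0.170 in edgeR). Upk1b, another uroplakin, had 5 UMIs at the edge and 2 in the interior of mouse A, and 15 and 15 in mouse B, with folds of 21.6 (3.54 to 227) and 6.89 (3.14 to 15.1). Lrrn4, a leucine-rich repeat membrane protein, had 7 against 6 UMIs in mouse A, and mouse B had 20 against 43, with folds of 10.1 (2.90 to 36.4) and 3.20 (1.79 to 5.57). For both genes the intervals of both mice lay above 1. Wt1, a transcription factor of mesothelium, had 0 UMIs at the edge of mouse A, which allows up to 3.16 CPM, and 2 in its interior. In mouse B Wt1 had 27 against 38 UMIs, 4.90-fold higher at the edge (2.87 to 8.23). Muc16, the mucin known as CA125, had 2 against 8 UMIs in mouse A, and mouse B had 12 against 9, with folds of 2.16 (0.22 to 10.8) and 9.19 (3.55 to 24.7). None of these genes passed the test (adjusted p between 0.160 and 0.212 in edgeR).

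Smaller differences were found for genes that mesothelium shares with stroma or lung epithelium. Sulf1, an enzyme that trims heparan sulfate, had 23.1 against 14.5 CPM in mouse A, and mouse B had 43.0 against 20.1. Rspo1, an enhancer of Wnt signaling, had 8.41 against 2.43 CPM and 2.60 against 1.28. Gpm6a, a membrane glycoprotein also found in alveolar type 1 cells, had 28.4 against 17.9 and 13.7 against 8.27. Rarres2, which encodes the chemoattractant chemerin, had 145.1 against 104.3 and 117.5 against 93.6. The edge was above the interior in both mice for these 4 genes, by 1.25-fold to 3.46-fold, though the interval of Sulf1 in mouse A and that of Rspo1 in B include no difference. Efemp1, a fibulin of elastic tissue, was split, with 52.6 against 37.9 CPM in mouse A, while mouse B had 12.4 against 13.9. Cldn15, a claudin, had 15.8 against 12.9 CPM and 5.53 against 5.48, and its intervals include no difference in either mouse. The same holds for Nkain4, a regulator of the sodium pump, with folds of 1.55 and 1.30. It also holds for Bnc1, a zinc finger protein of keratinocytes and mesothelium, with folds of 4.33 (1 and 2 UMIs) and 1.40. Prg4, which encodes the lubricant of joints and serous surfaces, and Gata5, a transcription factor, were too low to be tested, with at most 5 UMIs at an edge and folds between 1.57 and 2.88.

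**Figure D2:**
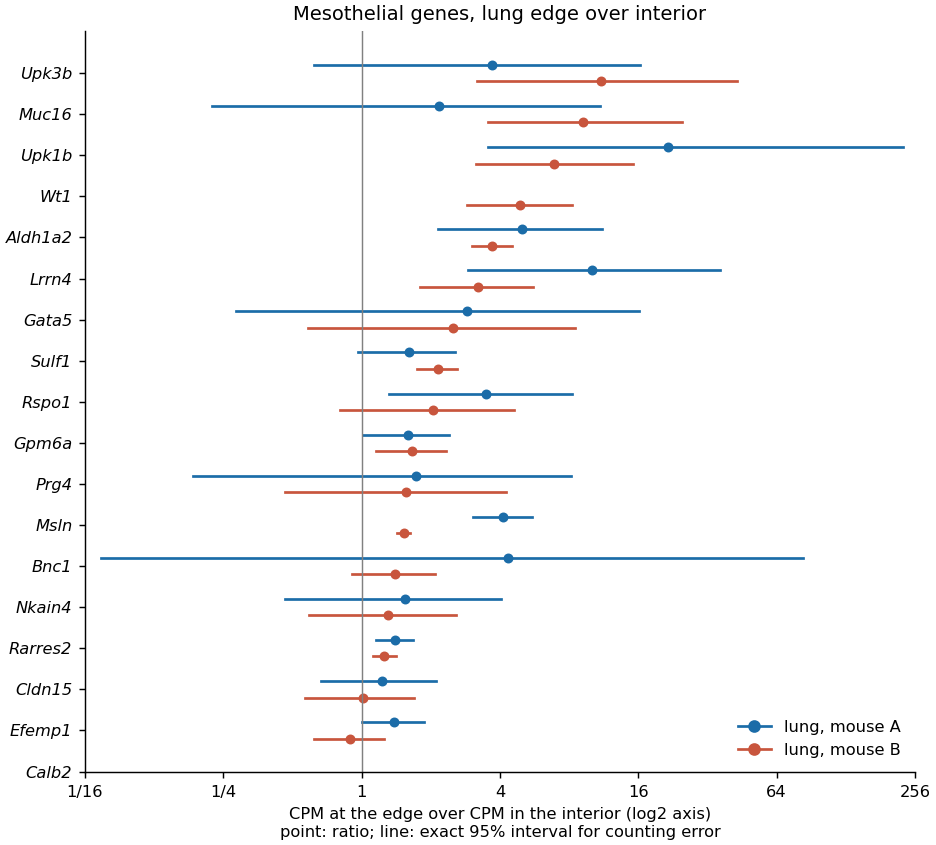
Ratio of the CPM at the edge to that in the interior for 17 mesothelial genes in the lung of mouse A (blue) and mouse B (red), on a log2 axis, with exact 95% intervals for counting error as lines. Calb2 and Wt1 of mouse A have no ratio. Intervals above 1 in both mice are seen for Upk1b, Aldh1a2, Lrrn4, Gpm6a, Msln and Rarres2.

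Counted by spots, Msln had at least 1 UMI in 44 of 184 edge spots of mouse A, or 23.9% (95% interval 17.9% to 30.7% by Clopper-Pearson), against 9.91% of interior spots (8.28% to 11.7%). In mouse B the shares were 70.3% and 67.4%, with overlapping intervals of 64.7% to 75.5% and 65.3% to 69.5%. After each spot was thinned to 2000 UMIs, they were 9.93% against 2.87% in mouse A, and mouse B had 40.6% against 31.2%. All intervals over spots treat the spots of 1 section as independent, although spots are not replicates. They describe that section only and test no difference between edge and interior. Thinning left out 33 edge and 15 interior spots of mouse A, and 32 and 37 of B, which were shallower. Aldh1a2 was found in 5.98% of edge and 1.42% of interior spots of mouse A, and in 23.9% and 10.5% of those of mouse B. In the interior of the primary tumors, with medians of 3910.5 and 1806 UMIs per spot, the shares for Aldh1a2 were 0.69% and 2.52%. Upk3b was found in 1.63% and 2.39% of edge spots and in 0.58% and 0.25% of interior spots of the lung. Over the spots of mouse B the intervals of edge and interior were 0.97% to 4.86% and 0.083% to 0.59%, and those of mouse A overlapped. Thinned to 2000 UMIs, the intervals of mouse B overlapped too (0.093% to 2.74% and 0.0013% to 0.29%), from 2 and 1 spots with a UMI. In the interior of the primary tumors Upk3b was found in 0.50% of spots of mouse A and 3.42% of those of mouse B. In that section Lrrn4 (3.30%) and Calb2 (3.60%) were as frequent. The interior of the tumor of mouse B, without pleura and at a lower median depth, had 9.14 CPM of Upk3b, 8.82 of Lrrn4 and 9.78 of Muc16. These levels are above those of either lung edge, which were 3.16 and 2.60 CPM for Upk3b, 7.36 and 6.51 for Lrrn4 and 2.10 and 3.91 for Muc16. In the tumor of mouse A these 3 genes had between 0.21 and 1.56 CPM. Some genes of lung epithelium or heart muscle had similar levels in the interior of the tumor of mouse B. Sftpc had 8.50 CPM there, Foxj1 7.06, Bpifb1 6.26 and Myh6 11.2, while Bpifa1 and Krt15 had 0. The source of the UMIs of Upk3b, Lrrn4 and Muc16 was not tested, in that tumor or at the lung edges.

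The mesothelial level was highest in the outermost ring of spots and was lower already at the next step. From 1 to 5 or more steps from the background, the summed level in mouse A was 386, 278.2, 250.2, 250.8 and 214.3 CPM. In mouse B it was 683, 564, 507, 502 and 421 CPM. Without Msln the outermost and innermost rings had 313.4 and 198.3 CPM in mouse A, and mouse B had 287.7 and 175.2, so the slope did not rest on this gene. Aldh1a2 had 50.8, 34.4, 23.9, 20.8 and 12.6 CPM in mouse B, a decrease at every step. In mouse A it had 11.6, 4.08, 2.08, 1.08 and 2.46 CPM, where the last 4 values come from 4, 2, 1 and 18 UMIs. Upk1b had 4.88, 2.95, 2.05, 1.79 and 0.54 CPM in mouse B and 5.26, 3.06, 1.04, 1.08 and 0.14 in mouse A. Set against the ring 3 steps in and not the whole interior, the summed mesothelial level was still higher at the edge, with a mean log2 ratio of 0.53 ± 0.14 (SD, n = 2 mice).

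**Figure D3:**
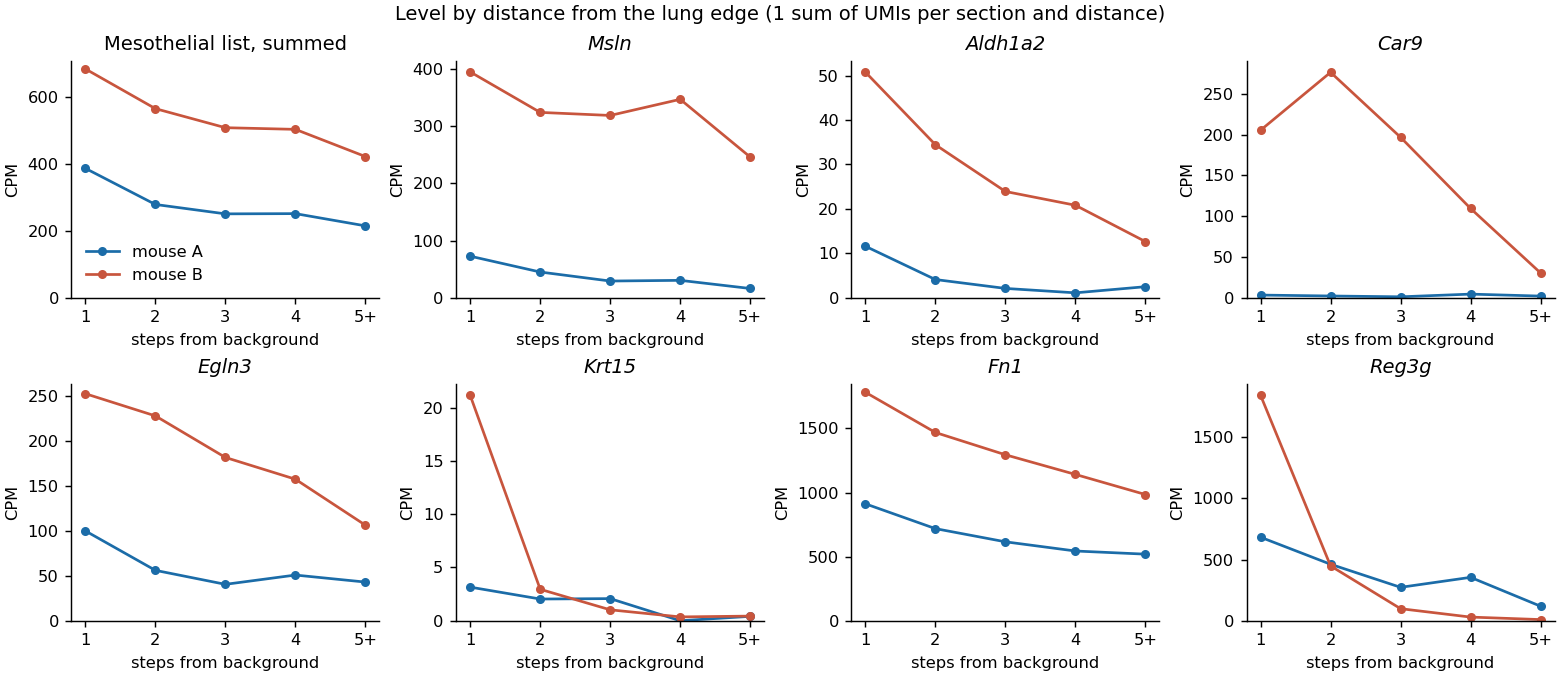
CPM of the summed mesothelial list and of 7 genes by the number of steps from the background, where 1 is the edge and 5+ pools all deeper spots, in mouse A (blue) and mouse B (red). The mesothelial list, Aldh1a2 and Fn1 are highest at step 1 in both mice, while Car9 in mouse B is highest at step 2, with 276.4 CPM.

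The summed mesothelial level was spread over the outline. For the scarce markers the number of sides with a UMI is limited by their few UMIs, so it cannot show a restriction to some sides. The edge spots were divided by their direction from the center of the section into 8 sides of 45 degrees. Without Msln, the mesothelial genes had between 1.45 and 4.94 UMIs per 10000 on the sides of mouse A, and between 2.25 and 3.78 on those of mouse B. Every side was above the deepest ring (198.3 and 175.2 CPM, or UMIs per 1000000) except the bottom one of mouse A, which had 6 such UMIs in 15 spots. Much of this sum is Rarres2, Efemp1, Gpm6a and Sulf1, which gave 237 of the 298 edge UMIs other than Msln in mouse A and 573 of 884 in B. In mouse A Wt1 had a UMI on 0 of the 8 sides, Muc16 on 1, Upk3b on 2, Upk1b and Lrrn4 on 4 and Aldh1a2 on 5. In mouse B Upk3b and Muc16 were found on 4 sides, Upk1b on 5, Wt1 and Lrrn4 on 6 and Aldh1a2 on 8. Msln was less even, with 0.18 to 2.01 UMIs per 10000 in mouse A, and mouse B had 1.10 to 6.60. Its highest side in mouse B was the left one, which was also the highest for the carcinoma genes at 30.4 per 10000. Without the left and lower left sides, the edge of mouse B had 326.2 CPM of Msln, 1.26-fold above the interior. In mouse A the lower left and bottom sides, with 33 of the 69 edge UMIs of Msln, were also the highest for the carcinoma genes, at 5.65 and 8.96 per 10000 against at most 3.12 elsewhere. The other 6 sides of mouse A had 46.5 CPM of Msln, 2.64-fold above the interior. The part of tumor cells in the level of Msln at the edge was not tested beyond these values. Aldh1a2 in mouse B had 4.38 and 10.3 CPM on the right and upper right, and between 18.1 and 103 CPM on the other 6 sides. The right and upper right hold 100 of the 293 edge spots and were below the interior of 13.7 CPM, so the direction turned there. It was highest on the lower right, bottom and left, where carcinoma genes had 19.8, 18.1 and 30.4 per 10000. On the top it had 18.1 CPM, with carcinoma genes at 18.2 per 10000.

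The 3 genes that rose at the edge beyond the threshold each drew over 0.5 of their edge UMIs from 1 or 2 of the 8 sides, and none of them is a mesothelial gene. The sides set apart here were chosen after their values were seen. Car9 encodes carbonic anhydrase 9, an enzyme that acidifies the surroundings of oxygen-poor cells. It had 3.16 against 2.19 CPM in mouse A, from 3 and 18 UMIs, a fold of 1.44 with an interval of 0.27 to 4.94 that includes no difference. In mouse B it had 205.4 against 40.7 CPM, from 631 and 861 UMIs (5.05-fold, 4.55 to 5.60). The log2 fold change was 2.09 (SE 0.22, adjusted p = 0.0227 in edgeR) and rests on mouse B. Of its 631 edge UMIs in mouse B, 563 or 89.2% lay on the left and lower left sides, which hold 57 of the 293 edge spots and have the highest carcinoma levels. The other 6 sides had 30.6 CPM, 0.75 times the interior. Car9 is itself 1 of the 10 carcinoma genes, and without the spots high in these genes its log2 fold change was 0.36 (adjusted p = 0.874 in edgeR). Against the ring 3 steps in it was 0.02 (adjusted p = 0.999).

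Egln3 encodes a prolyl hydroxylase that marks hypoxia-inducible factors for degradation and is itself induced by them. It had 99.9 against 43.9 CPM in mouse A (95 and 361 UMIs) and 252.6 against 113.0 in mouse B (776 and 2393 UMIs). The folds were 2.28 (1.80 to 2.86) and 2.23 (2.06 to 2.42). Within each mouse the edge was above the interior, while the edge of mouse A was below the interior of B. The log2 fold change was 1.07 (SE 0.12, adjusted p = 0.0274 in edgeR). In mouse A 56 of the 95 edge UMIs were on the upper right side, and the other 7 sides had 51.8 CPM, 1.18-fold above the interior. In mouse B 499 of the 776 were on the left and lower left sides, and the other 6 had 124.6 CPM, 1.10-fold above the interior. Without spots high in carcinoma genes the log2 fold change was 0.41 (adjusted p = 0.382 in edgeR). It did not pass thinned to 2000 UMIs per spot (0.78, adjusted p = 0.0852) or against the ring 3 steps in (0.62, adjusted p = 0.292) either.

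Krt15, a keratin of basal cells of the airway and of the esophagus, had 3 UMIs at the edge and 3 in the interior of mouse A, and 65 and 9 in mouse B. The 3 edge UMIs of mouse A came from 1 spot. Krt15 passed the filter on low counts only through its 2 edge sums. The CPM was 3.16 against 0.36 and 21.2 against 0.43, folds of 8.65 (1.16 to 64.6) and 49.8 (24.7 to 113.7). The log2 fold change was 4.94 (SE 0.64, adjusted p = 0.0477 in edgeR). In mouse B 64 of the 65 edge UMIs were on the right and upper right sides, where the airway genes are found too. The other 6 sides had 0.42 CPM, as the interior did. Krt15 did not pass the filter on low counts when spots were thinned, against the ring 3 steps in, or without the spots highest in cardiac or in airway genes, and was not tested there. In the largest connected piece of tissue alone, which leaves out 2 and 13 spots, none of the 3 genes passed (adjusted p between 0.0587 and 0.107 in edgeR), nor did any with another scaling (relative log expression, RLE) or without the block. Car9 and Egln3 did not pass without the spots highest in cardiac genes either.

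Car9 and Egln3 are both known targets of hypoxia-inducible factors, which bind the core motif ACGTG, so the 250 bases before their RefSeq starts are shown. They were read from a RefSeq table of GRCm38.p6, and capitals mark the motif on either strand. The Car9 stretch is chr4:43506776-43507025 on the plus strand, and its last bases overlap the GENCODE gene model (chromosome 4, 43506966 to 43513729). The Egln3 stretch is chr12:54203875-54204124 on the minus strand, before a gene model at 54178981 to 54203860 of chromosome 12.
Car9: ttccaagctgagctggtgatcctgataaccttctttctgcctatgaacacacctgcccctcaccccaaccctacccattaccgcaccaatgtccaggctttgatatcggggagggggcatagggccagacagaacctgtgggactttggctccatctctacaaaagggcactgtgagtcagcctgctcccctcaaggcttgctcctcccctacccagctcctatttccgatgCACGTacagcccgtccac
Egln3: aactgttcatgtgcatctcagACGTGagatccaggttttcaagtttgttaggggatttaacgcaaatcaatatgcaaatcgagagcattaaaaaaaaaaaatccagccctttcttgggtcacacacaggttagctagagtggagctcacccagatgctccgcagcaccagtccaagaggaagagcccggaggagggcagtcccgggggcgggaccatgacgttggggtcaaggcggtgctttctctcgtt
The match in Car9 begins 18 bases before the start and reads CACGT, the reverse complement, and that in Egln3 begins 229 bases before. ACGTG or CACGT occurs in 16.6% of the 32851 stretches of the same length before a start in the table. The 9 of 10 hypoxia genes with an entry have 11 such stretches, of which 8 held the motif, 1 for each of 8 genes. These are matches of letters and not sites shown to be bound. Krt15 is not shown.

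The hypoxia list as a whole differed between the mice by more than its mean edge difference, with a summed log2 ratio of 0.52 ± 0.54 (SD, n = 2 mice). Of 9 tested, 2 rose (Car9 and Egln3), against 0.0232% of all genes, and 8 had a higher CPM at the edge in both mice, against 39.7%. On the TMM scale that count was 5, against 26.3%. Summed, the list had 750 against 681 CPM in mouse A, and mouse B had 1293 against 693. Ndrg1, a stress-response gene of the list, had 33.7 against 18.1 CPM and 63.5 against 29.2 (log2 fold change 0.94, SE 0.19, adjusted p = 0.160 in edgeR). Vegfa, which encodes the main growth factor of vessels, had log2 ratios of 0.03 and 0.67.

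Carcinoma genes were higher at the edge of both lungs. All 10 of the list, which was chosen to mark 4T1 carcinoma and holds Hmga2, Csf3, Mmp3 and Plau, had a higher CPM at the edge in both mice, against 39.7% of all genes, 9 did on the TMM scale, against 26.3%, and Car9 passed the test. The summed level was 284 against 126.7 CPM in mouse A, and mouse B had 1814 against 1293. In the primary tumors it was lower at the edge, with 4613 against 5417 and 5777 against 6606 CPM. From 1 to 5 or more steps from the background, the carcinoma level in the lung of mouse A was 284, 206.8, 205.5, 167.6 and 121.5 CPM. In the lung of mouse B it was 1814, 1902, 1876, 1825 and 1212 CPM, so the outermost ring was not the highest there. In mouse A 35 edge spots (19.0%) were in the tenth of spots with the highest carcinoma share, against 79 (6.58%) of the interior spots. Mouse B had 49 (16.7%) against 116 (5.90%). Hmga2, a chromatin protein of embryonic and tumor cells, had a log2 ratio of 2.11 in mouse A, and mouse B had 0.54. Proliferation genes went with them in mouse A, where the sum was 560 against 321 CPM, and not in mouse B, with 1550 against 1504. The part of tumor cells in the other edge differences was not tested beyond leaving out these spots, after which 28 genes were higher and 0 lower at the edge in edgeR.

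Fibrillar collagens and their partners had higher levels at the edge, as did the sum of the fibroblast list, while elastic fiber genes had not. Of 10 fibrillar collagen genes and partners, 9 had a higher CPM at the edge in both mice, against 39.7% of all genes, and 8 did on the TMM scale, against 26.3%. None passed the test, and 5 were higher at an unadjusted p under 0.05, against 5% of all genes. The summed level was 2557 against 1854 CPM in mouse A, and mouse B had 5359 against 3849, log2 ratios of 0.46 and 0.48. Fn1, which encodes fibronectin, had 912 against 522 CPM in mouse A, and mouse B had 1782 against 1005. Its folds of 1.75 (1.62 to 1.88) and 1.77 (1.72 to 1.83) agree within counting error, and the log2 fold change was 0.72 (SE 0.13, adjusted p = 0.160 in edgeR). DESeq2 called it (adjusted p = 0.0161), with an adjusted p missing for 17574 of 18885 genes. In mouse A 423 of its 867 edge UMIs lay on the upper right side, and the other 7 sides had 589 CPM, 1.13-fold above the interior. In mouse B Fn1 had 447, 566 and 603 CPM on the right, upper right and top, all below the interior, and 1491 to 3321 on the other sides. The sums of the primary tumors were between 1801 and 2328 CPM of Fn1. Dcn, the proteoglycan decorin of fibroblasts, had 61.0 against 29.4 CPM and 47.2 against 23.3 (log2 fold change 0.93, SE 0.17). In mouse A 53 of its 58 edge UMIs lay on the upper right side, and the other 7 sides had 6.64 CPM, 0.23 times the interior, so that the direction turned. In mouse B it was 1.55-fold above the interior without the right and upper right sides. Fbln2, a fibulin of basement membranes, had 14.7 against 9.36 and 329.1 against 145.4 (0.98, SE 0.15, adjusted p = 0.0974 in edgeR). Without the upper right side Fbln2 in mouse A was 0.85 times the interior, from 6 UMIs, and without the left and lower left sides in mouse B it was 1.46-fold above. The fibroblast list summed to 2032 against 1693 CPM in mouse A, and mouse B had 2077 against 1705, 1.20-fold and 1.22-fold above the interior. Of its 17 genes, 7 were above and 4 below the interior in both mice, shares close to the 39.7% and 22.3% of all genes. Pi16 and Dpt, markers of adventitial fibroblasts, were among the 4 that were lower. Elastic fiber genes had 1054 against 1044 CPM and 742 against 792, a mean log2 ratio of -0.040 ± 0.077 (SD, n = 2 mice). Fn1, Dcn, Fbln2 and every other gene named here that is neither mesothelial nor among the 3 called were chosen after their values were seen.

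Several airway genes had large differences that came from 1 part of the outline. Of 8 tested, 6 were higher at the edge in both mice, against 39.7% of all genes, and 0 passed the test, and the sum was 4075 against 3677 CPM in mouse A, and mouse B had 5424 against 1097. Reg3g, an antimicrobial lectin of airway epithelium, had 683 against 145.0 CPM in mouse A, and mouse B had 1842 against 12.1. Bpifa1, a secreted protein of the upper airway, had 176.7 against 47.8 CPM and 999 against 8.69. Muc5b, the gel-forming mucin of airways, had 64.2 against 18.2 and 76.8 against 4.16. The fold of Reg3g was 4.71 in mouse A and 152.3 in B, and that of Bpifa1 was 3.70 and 115.0. The log2 fold changes of 4.60 (SE 0.98), 4.36 (SE 0.94) and 2.99 (SE 0.43) did not pass the test (adjusted p of 0.160, 0.160 and 0.0815 in edgeR). In mouse A 618 of 649 edge UMIs of Reg3g lay on the upper right side. In mouse B 5620 of 5659 lay on the right and upper right sides. Leaving out the tenth of spots highest in airway genes removed 25 and 71 edge spots. Reg3g, Bpifa1 and Muc5b are among the genes that chose these spots, so lower values were fixed by the choice and support nothing. They were log2 fold changes of 0.84 for Reg3g, 0.71 for Bpifa1 and -0.92 for Muc5b (adjusted p = 0.107, 0.431 and 0.490 in edgeR). Retnla, a secreted protein of macrophages and airway cells, stood at 1054 against 1824 CPM in mouse A, and mouse B had 1472 against 2066. In mouse A 594 of its 1002 edge UMIs lay on the upper right side, and over the other 7 sides it was 0.30 times the interior. In mouse B it was 0.48 times the interior without the right and upper right sides, and 0.94 times without the left and lower left. Without airway-rich spots it fell by 1.69 on the log2 scale (adjusted p = 0.00180 in edgeR), while against the ring 3 steps in it was 0.59 higher (adjusted p = 0.0204).

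Smooth muscle genes went in opposite directions in the 2 lungs. All 9 genes of the list had a lower CPM at the edge in mouse A but a higher one in mouse B, and the sums were 422 against 791 and 912 against 370 CPM. In mouse B the right and upper right sides, which carry the airway genes, had 22.0 and 29.2 smooth muscle UMIs per 10000, against 2.36 to 6.31 on the other sides. Adipose genes were also found there, with 7.10 and 4.84 per 10000 against at most 0.47 elsewhere in mouse B. Motile cilium genes had 1187 against 1402 CPM in mouse A, and mouse B had 941 against 512. For all of these lists the difference between the mice exceeded the mean difference between edge and interior, and 0 of their genes passed the test.

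**Figure D4:**
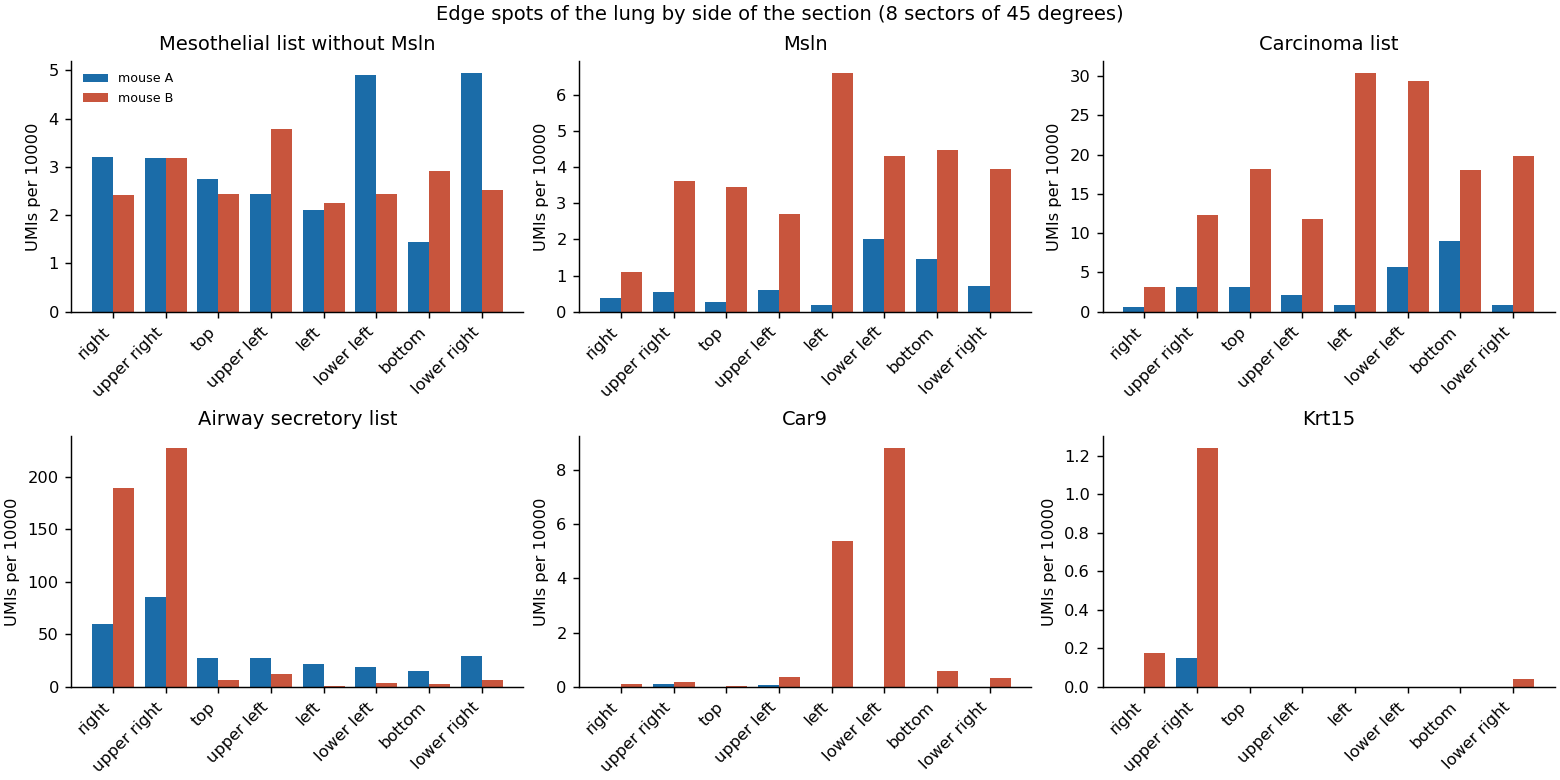
UMIs per 10000 of 3 gene lists, of Msln, and of Car9 and Krt15 over the edge spots on each of 8 sides of the lung sections of mouse A (blue) and mouse B (red). The summed mesothelial genes other than Msln are found on every side, airway genes and Krt15 of mouse B on the right and upper right, and Car9 of mouse B on the left and lower left.

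Neutrophil genes were lower at the edge of both lungs. All 12 of the list had a lower CPM at the edge in both mice, against 22.3% of all genes tested, and on the TMM scale also 12, against 33.3%. At an unadjusted p under 0.05, 11 of the 12 were lower, against 7.81% of all genes, and 0 passed the adjusted test. The sum was 74002 against 90689 CPM in mouse A, and mouse B had 26688 against 39042, 0.82 and 0.68 times the interior. S100a8, a calcium-binding protein of neutrophils, had 25222 against 31276 CPM and 9811 against 14508 (log2 fold change -0.54, SE 0.16, adjusted p = 0.197 in edgeR). Camp, a cathelicidin of neutrophil granules, had 1151 against 1419 and 240.5 against 421.3 (log2 fold change -0.65, SE 0.16). The level was uneven along the edge. In mouse B S100a8 had 801 and 6247 CPM on the carcinoma-rich left and lower left sides, and 20831 and 16279 on the right and upper left, above the interior. On the bottom and lower right it had 5014 and 8554 CPM, and on the upper right and top 10743 and 14157, all below the interior. Without the left and lower left sides it was 0.86 times the interior. In mouse A it was lowest on the upper right and bottom, with 14216 and 14048 CPM against 24502 to 30935 on the other sides. The part of carcinoma in these differences was not tested. The primary tumors gave ratios of the summed list of 0.78 and 0.59, so a lower level of these genes at the edge was not particular to the lung. In both lungs the level was highest in the deepest ring. Thinned to 2000 UMIs per spot, S100a8 was called (log2 fold change -0.45, adjusted p = 0.00886 in edgeR), while without spots high in carcinoma genes it had -0.27 (adjusted p = 0.584).

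The endothelial genes, of capillaries and of other vessels, were lower at the edge of both lungs too. Of 16 endothelial genes 13 were lower at the edge in both mice, against 22.3% of all genes, and 15 were on the TMM scale, against 33.3%. None passed the adjusted test, and 13 were lower at an unadjusted p under 0.05, against 7.81%. Gpihbp1, the anchor of lipoprotein lipase on capillaries, had 181.9 against 251.4 CPM in mouse A, and mouse B had 104.5 against 181.4. Car4, a carbonic anhydrase of alveolar capillaries, had 153.6 against 220.4 and 68.3 against 98.9. The log2 fold changes were -0.74 (SE 0.14) for Gpihbp1 and -0.63 (SE 0.12) for Car4, both with an adjusted p of 0.160 in edgeR. In mouse B Gpihbp1 had 20.4 CPM on the carcinoma-rich left side and 197.9 on the upper left, and Car4 had 3.72 on the left and 175.3 and 126.4 on the right and upper left, above the interior. Without the left and lower left sides Gpihbp1 was 0.71 and Car4 0.85 times the interior. The summed endothelial list was 0.89 and 0.67 times the interior in the lungs of mouse A and B, and 0.72 and 1.17 times in their primary tumors. At the tumor edges Gpihbp1 was 0.88 and 0.98 times the interior. Car4 was 0.32 times the interior in both tumors, from 2 and 10 edge UMIs. Alveolar type 2 genes hardly differed in mouse A, with 12709 against 12536 CPM, and were lower at the edge of mouse B, with 5715 against 8264. Alveolar type 1 genes gave 3245 against 3187 and 1273 against 1683 CPM. Of 12 type 1 genes 9 were lower at the edge in both mice, on either scale, against 22.3% of all genes and 33.3% on the TMM scale. Another 2 were higher in both (Aqp5 and Pdpn), and 0 passed the test. Ager, a receptor that marks type 1 cells, had folds of 1.09 (1.03 to 1.15) and 0.64 (0.61 to 0.68), and was the 1 gene of the list that split between the mice. Cardiac muscle genes, of heart or of the muscle sleeve of pulmonary veins, had 259 against 384 CPM and 407 against 552. Of 9 tested, 7 were lower in both mice, against 22.3% of all genes, 8 were on the TMM scale, against 33.3%, and 0 were called. Myh6, a heavy chain of atrial myosin, had 81.0 against 135.6 CPM in mouse A, and mouse B had 120.4 against 168.7 (log2 fold change -0.69, SE 0.13, adjusted p = 0.160 in edgeR). It passed against the ring 3 steps in (-0.90, adjusted p = 0.0204) and without airway-rich spots (-2.28, adjusted p = 0.00180), where Myl4, Myl7, Tnnt2, Ttn and Hspb7 of heart muscle were called lower too. Without the spots highest in cardiac genes it had -0.054 (adjusted p = 0.980), and Myh6 is among the genes that chose these spots. Lymphocyte genes had 631 against 871 and 185.8 against 239.6 CPM. By CPM 5 of 12 were lower in both mice, against 22.3% of all genes, and 2 were higher in both. On the TMM scale 5 were lower as well, against 33.3%, so the count is not read as a result about these genes.

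**Figure D5:**
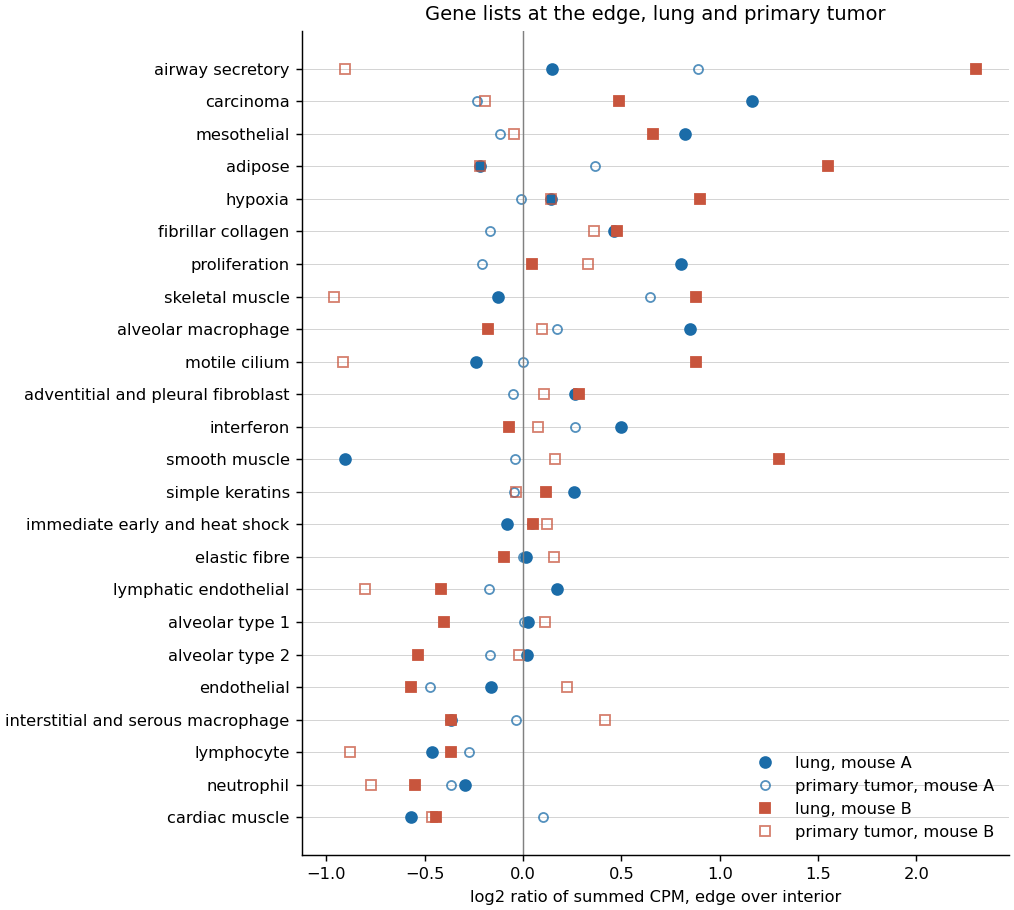
Log2 ratio of the summed CPM at the edge to that in the interior for 24 gene lists, in lung (filled) and primary tumor (open) of mouse A (blue circles) and mouse B (red squares). In the lung the mesothelial, carcinoma, fibrillar collagen, fibroblast, simple keratin, airway, hypoxia and proliferation lists lie above 0 in both mice, and the neutrophil, endothelial, lymphocyte, cardiac muscle and interstitial macrophage lists below 0 in both.

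Interstitial and serous macrophage genes, in which Retnla has most UMIs, had 1726 against 2224 CPM in mouse A, and mouse B had 2272 against 2927, 0.78 times the interior in each. Of 8 tested, 2 were lower in both mice, close to the 22.3% of all genes. The other lists differed in direction between the mice or by at most 0.26 on the log2 scale. Interferon genes had 463 against 327 CPM in mouse A, and mouse B had 300.4 against 316.2. Alveolar macrophage genes had 126.2 against 70.0 and 187.5 against 212.4. Simple keratins had 673 against 562 and 876 against 809, and immediate early and heat shock genes 1882 against 1994 and 1855 against 1792. Lymphatic endothelial genes had 91.5 against 81.1 and 45.9 against 61.2, and skeletal muscle genes 34.7 against 37.9 and 48.8 against 26.5 CPM. None of the genes of these lists passed the test.

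Whether an edge difference was particular to the lung was tested by the interaction of position and tissue in edgeR, over the 8 sums of lung and primary tumor. Of 12855 genes 1, or 0.00778%, had a higher edge effect in the lung at an adjusted p under 0.05, and 0 had a lower one. This gene was Car9, whose edge effect was 2.10 higher in the lung on the log2 scale (SE 0.26, adjusted p = 0.0108 in edgeR). In the primary tumors Car9 had 768 against 839 CPM in mouse A, and mouse B had 882 against 824. Of the mesothelial genes, 12 could be tested and 0 passed. Msln had an interaction of 0.65 (SE 0.32, adjusted p = 0.702 in edgeR) and Aldh1a2 of 2.49 (SE 0.63, adjusted p = 0.577). At an unadjusted p under 0.05, 916 of the 12855 genes differed. The edge of the primary tumor alone gave 0 genes of 17196 (382 at an unadjusted p under 0.05 in edgeR).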

How the data were processed

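Values were the authors' deposited UMI counts, made with Space Ranger 2.0.0 on mm10 from a probe kit for fixed mouse tissue and not normalized, with the array position of each spot. Of 19465 genes listed, 253 symbols of 24 hand-written lists were sought and 241 had a row. UMIs were summed over edge and over interior spots of each section, since spots are not replicates. The sums were tested in R 4.3.3 with edgeR 4.0.16 (TMM, filterByExpr, quasi-likelihood test, Benjamini-Hochberg, threshold 0.05), with the mouse as a block, since both sums come from 1 animal. Deviations of the sums of mouse A from the class means had a correlation of 0.727 over 12924 genes between edge and interior. The fit has 4 sums and 1 residual degree of freedom, so its p-values lean on the spread shared between genes. Sums come from 1 section per mouse, and 2 mice limit every test.

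On simulated counts for lung edge against interior (18885 genes), 75.5% of 2-fold and 95.7% of 4-fold changes tested were recovered, with 9 unchanged genes called. For the interaction (19310 genes) it was 26.7% and 77.9%, with 3 called. Only genes above a minimal summed count were changed, with the same fold in both mice and 1 common spread for all genes. The shares recovered therefore do not hold for the scarce mesothelial genes or for folds that differ between the mice. The genes named are the 18 mesothelial genes, all called genes, 23 chosen after their values were seen, and Vegfa, Hmga2, Csf3, Mmp3, Plau, Pi16, Dpt, Aqp5, Pdpn and the genes called under an alternative, also chosen then. The members and lists were chosen with earlier results of these data known. Alternatives were RLE scaling, DESeq2 1.42.0, no filter, no block, other edge and interior depths, the largest piece of tissue, thinning, and leaving out spots high in carcinoma, cardiac or (added after the data were seen, as was thinning for the interaction) airway genes. Intervals and shares used scipy 1.17.1, with 3 UMIs as the limit for a count of 0. Gene positions are from GENCODE vM21. Histology was not analysed here.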

Additional observations from a re-analysis of the deposited data

Results flagged for a closer look

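Car9 was singled out because its edge effect differed between lung and primary tumor. The difference was 2.10 on the log2 scale (SE 0.26, adjusted p = 0.0108 in the edgeR interaction test). In the lung the log2 ratio of edge to interior was 0.53 in mouse A, from 3 and 18 UMIs, and 2.34 in mouse B. In the primary tumor it was -0.13 and 0.10. The call therefore rests on mouse B, where 57 edge spots on the left and lower left sides hold 89.2% of the edge UMIs of Car9. These sides also have the highest carcinoma levels, and the part of tumor cells in the difference was not tested. Thinned to 2000 UMIs per spot, 3 genes differed between the tissues, and without the block 0 did.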

How the results depend on the processing

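Of the values of single genes recomputed under an alternative, 483 were kept and 12 reversed. Of the rest, 88 newly passed the threshold, 19 no longer did and 30 moved beyond the spread. Kept means the same direction and side of the threshold. With a mouse left out there is no test, and it means within the SD of the 2 mice. Signs were then compared only for called genes. Efemp1 in mouse B alone (-0.17), and Sftpc (0.012) and Ager (0.12) in mouse A alone, had the sign opposite to the fit and are not among the 12. Of the counts and summed levels, 30 stayed close, 22 counts were higher, 6 were lower and 2 summed levels moved. Genes higher at the edge numbered 3, and became 0 with RLE scaling (1502 at an unadjusted p under 0.05 in edgeR), 0 in the largest piece of tissue (1615) and 0 without cardiac-rich spots (1690). They became 190 without the filter, 1 with DESeq2 (Fn1, 495 unadjusted, an adjusted p missing for 17574 of 18885 genes and none of the 3 genes called), 15 thinned (of the 3, Car9 only), 9 and 7 with an interior from 3 or 6 steps, 18 against the ring 3 steps in (none of the 3), 61 with an edge of 1 or 2 steps, 28 without carcinoma-rich (of the 3, Krt15 only) and 8 without airway-rich spots (Car9 and Egln3). Genes lower at the edge numbered 0, and 325, 1 (Retnla), 5, 5, 24 and 8 without the filter, with DESeq2, thinned, against the ring 3 steps in, with the wider edge and without airway-rich spots (Myh6, Myl4, Myl7, Tnnt2, Ttn, Hspb7, Retnla and Cyp2f2). Without the replicate block 0 genes were higher and 0 lower in edgeR (39 unadjusted), and 0 differed between the tissues (6 unadjusted). The interaction count of 1 became 11 without the filter and 3 thinned. Mesothelial genes higher numbered 0, and 5 without the filter (Aldh1a2, Lrrn4, Msln, Sulf1 and Upk1b), 3 with the wider edge (Aldh1a2, Msln and Upk1b) and 1 (Aldh1a2) each with the interior from 3 or 6 steps, without carcinoma-rich and without airway-rich spots. The log2 ratio of their summed level, 0.74, was 0.53 against the ring 3 steps in and 0.57 with the wider edge, and 0.66 to 0.82 with either mouse left out. It was 0.69 without Msln.

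The 12 reversed values were those of Cldn15 (-0.13 with the wider edge, -0.033 without cardiac-rich spots), Bnc1 (-0.62 against the ring 3 steps in, -0.077 without carcinoma-rich spots) and Efemp1 (-0.027 with the interior from 6 steps, -0.11 with the wider edge, -0.038 without cardiac-rich and -0.040 without airway-rich spots). The others were Muc5b (-0.92), Bpifb1 (-0.071) and Foxj1 (-0.15) without airway-rich spots, which Muc5b and Bpifb1 themselves helped to choose, and Retnla (0.59) against the ring 3 steps in. With either mouse left out there is 1 animal and no test. Car9 then had a log2 ratio of 2.34 in mouse B alone and 0.53 in mouse A alone, Krt15 had 5.64 and 3.11, and Egln3 1.16 and 1.19. The cause of these differences was not tested. Upk3b, Upk1b, Wt1, Lrrn4 and Muc16 had at most 27 UMIs at an edge, so their folds rest on few counts. Why they were scarce was not tested. All 3 called genes rest on 1 section per mouse.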
